A study of Mus musculus with 9 samples.

Results

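The MYC/MAX/MXD network was read in whole spontaneous osteosarcomas of genetically engineered mice as the transcript levels of 10 genes, Myc, Mycn, Mycl, Max, Mxd1, Mxd3, Mxd4, Mxi1, Mnt and Mga. They were found by gene symbol among the 55367 genes of the deposited count table, and each symbol named 1 row. MYC proteins act as transcription factors only when bound to MAX, and the MYC-MAX dimer binds E-box sequences and activates genes of growth and ribosome production. The MXD proteins, MXI1 and MNT compete for the same MAX and the same E-boxes and recruit SIN3 corepressors, so that the balance between MYC and these antagonists is read as a switch between growth and differentiation. In osteosarcoma, a tumor of bone-forming cells, MYC is often amplified.

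Tumors of 2 genotypes were compared. The p53-driven group held 4 tumors (F187, F325, F331 and F368) of Col2.3-Cre/Trp53fl/+ mice, in which Cre expressed from an osteoblast promoter removes 1 floxed Trp53 allele. The Myc-knockin group held 5 tumors (M351, M408, M9, M624 and M664) that carried, on the same background, a Lox-Stop-Lox c-MycT58A allele that Cre switches on. The T58A change removes a phosphorylation site by which MYC is marked for degradation. Both groups therefore share Cre and the floxed Trp53 allele (written p53fl/+ for the knockin) and differ in the MYC allele. The labels give no ages, so age and genotype cannot be told apart. They also do not name the table's columns, which were placed by group. For F187, F325, F368, M408 and M624 the study's supporting values list a cell line of the same name under its genotype. For F331 the study's methods name such a line. M351, M9 and M664 were placed from the letter M alone. That a column and a cell line of the same name come from the same tumor is inferred.

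Counts per tumor ranged from 2716322 to 17073285 reads on genes. Genes made of satellite repeats, 13 in number, took between 23.2% and 81.0% of the reads in F187, M351, M408 and M9, against at most 0.0242% elsewhere. The same 4 libraries held reads on 1819 chemosensory receptor genes, which bone tumors are not known to use, and these reads were taken as a measure of genomic background. In M624 and M664, the small nuclear RNA Rn7sk, which carries no poly(A) tail, was at 5.33 and 9.32 counts per 1000000 reads (CPM) outside the satellite genes, against at least 8858 in the other 7 libraries. Both of these are Myc-knockin tumors, so within them the library and the genotype cannot be told apart. The remaining Myc-knockin tumors, M351, M408 and M9, all held satellite reads, as did F187 alone of the p53-driven tumors. No Myc-knockin library was thus of the same kind as F325, F331 and F368. No set of these tumors fully separates the library from the genotype. The comparison was therefore made over all 9 tumors and repeated without M624 and M664, and without the 4 libraries with satellite reads, which leaves F325, F331 and F368 against M624 and M664. The mean level of Trp53 was 10.04 ± 2.35 CPM (SD) over the 4 p53-driven and 14.7 ± 14.03 CPM (SD) over the 5 Myc-knockin tumors. The table counts whole genes, so these values do not check the floxed allele. Reads of the knockin and of the endogenous Myc allele also fall on 1 row and cannot be told apart.

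All 10 members lie on mm10 as follows. Myc (ENSMUSG00000022346), the MYC gene of most proliferating cells, is at chr15:61985391-61990374 (+). Mycn (ENSMUSG00000037169), its paralog of embryonic and neural tissue, is at chr12:12936093-12941914 (-), and Mycl (ENSMUSG00000028654), the third paralog, is at chr4:122995652-123002485 (+). Max (ENSMUSG00000059436), the shared partner, is at chr12:76937269-76962201 (-). The antagonists Mxd1 (ENSMUSG00000001156), Mxd3 (ENSMUSG00000021485) and Mxd4 (ENSMUSG00000037235) are at chr6:86647042-86669161 (-), chr13:55325168-55329823 (-) and chr5:34173883-34187720 (-). Mxi1 (ENSMUSG00000025025), also an MXD-type antagonist, is at chr19:53310518-53375810 (+), and Mnt (ENSMUSG00000000282), the widely expressed antagonist, is at chr11:74830920-74845725 (+). Mga (ENSMUSG00000033943), a very large protein with a T-box that joins MAX to a Polycomb complex, is at chr2:119897228-119969581 (+).

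The canonical E-box of the network, CACGTG, was looked for in the promoters of its own members because each dimer of the network can bind it. RefSeq promoter windows of 300 bases (GRCm38.p6, from 250 bases before to 50 after the transcription start) were at hand for 9 of the 10 members, in 11 windows, and not for Myc. The motif reads the same on both strands. It was found in the windows of 3 members, Mxd4, Mnt and Max, and in 7.15% of the 32851 windows of all genes. The 60 bases around each match are shown 5′ to 3′ on the gene's strand with CACGTG in capitals, from RefSeq.
Mxd4, chr5:34187897-34187956 (-): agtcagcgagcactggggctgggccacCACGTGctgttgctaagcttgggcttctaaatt
Mnt, chr11:74830774-74830833 (+): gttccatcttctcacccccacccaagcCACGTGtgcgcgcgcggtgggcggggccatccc
Max, chr12:76962219-76962278 (-): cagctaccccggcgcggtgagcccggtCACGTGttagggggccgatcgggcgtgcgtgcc
The first base of the motif lies at -219 in Mxd4, at -123 in Mnt and at -3 in Max, counted from the RefSeq start. A match describes the letters of the window and is not evidence of binding. The fold changes of these 3 genes between the groups are given below, and none of the 3 was called by edgeR over all 9 tumors.

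Levels are given as CPM after edgeR's TMM normalization, which scales each library so that most genes keep their level. Differences between the groups were tested by edgeR's quasi-likelihood test over 15365 genes, and a gene was called at a Benjamini-Hochberg adjusted p under 0.05 over all of them with a fold change over 1.5. The labels number the tumors of a group without saying that each came from its own mouse, so p-values measure only the spread between these tumors. Of the members, 9 were tested and Mycn did not pass the filter on low counts. Myc and Mxi1 were called, both higher in the Myc-knockin tumors, and no member was called lower. With limma-voom, which called 10.8% of all genes, Mxd4 was called lower. Of all genes tested by edgeR, 5.27% were called, 2.26% as higher and 3% as lower in the knockin. The CPM ranges of the groups did not overlap for 3 members, Myc, Max and Mxi1, each higher in every Myc-knockin tumor than in any p53-driven tumor. Of all genes tested, 13% had ranges that did not overlap, in either direction.

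**Figure D1:**
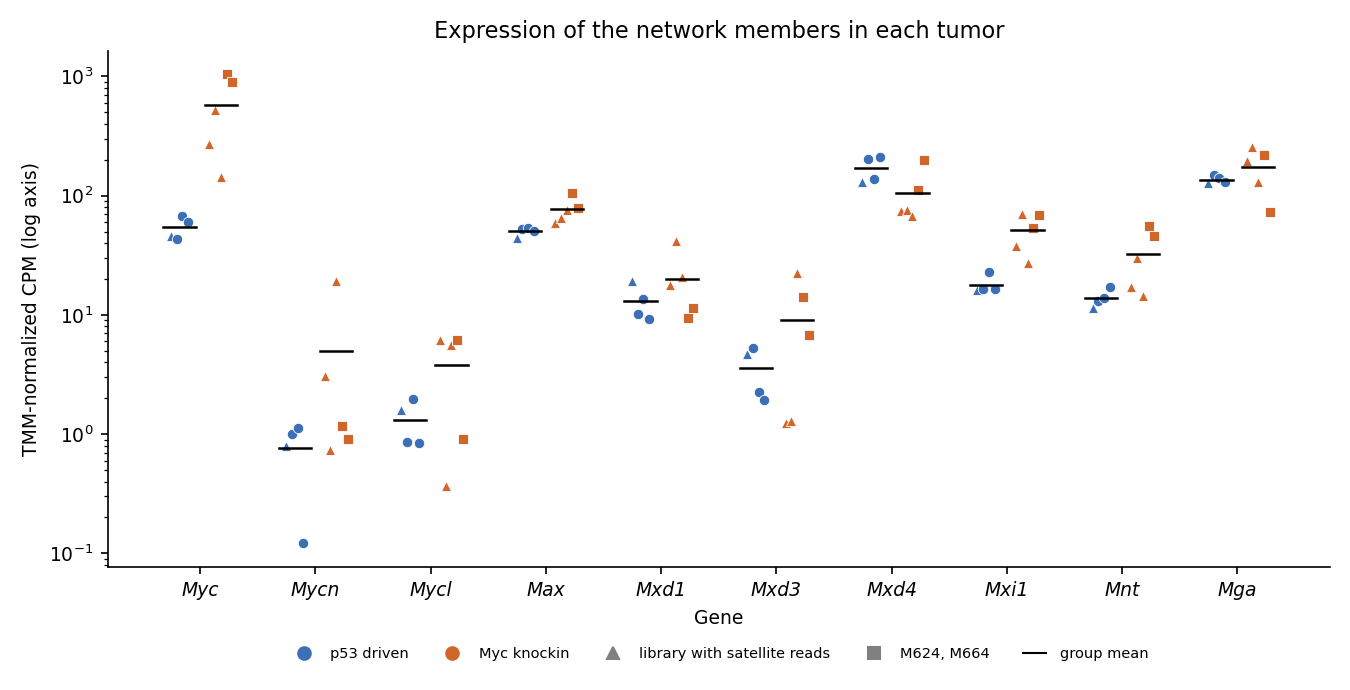
TMM-normalized CPM (log axis) of the 10 members in each of the 4 p53-driven (blue) and 5 Myc-knockin (orange) tumors, with triangles for the libraries with satellite reads, squares for M624 and M664, and lines at the group means. The groups are apart for Myc, Max and Mxi1, while Mxd4 is the only member with 4 of 5 Myc-knockin tumors below the lowest p53-driven tumor.

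Myc itself had 46.2, 43.5, 67.1 and 60.4 CPM in F187, F325, F331 and F368, and 269.6, 520.3, 144, 1045 and 905 CPM in M351, M408, M9, M624 and M664. Within the knockin group the level thus ranged from 144 CPM in M9 to 1045 CPM in M624. Its log2 fold change of 3.41 had a standard error of 0.59 and an adjusted p of 0.0217 (edgeR), and since Myc is the altered gene it is read here against its partners. The size of the fold depended on the tumors and the tool, with 2.60 without M624 and M664, 4.11 without the 4 libraries with satellite reads and 2.34 with limma-voom, and Myc was called in each (adjusted p = 0.0300, 0.00421 and 0.00737 from edgeR, edgeR and limma). Without F325, F331 or F368 its adjusted p was 0.0813, 0.0782 or 0.0909 (edgeR), at log2 fold changes of 3.33, 3.54 and 3.46. Of all genes, 0.0498%, 0.0375% and 0.0292% were called in these 3 fits. The smallest value that 3 counts can show was 0.114 CPM in M624 and 2.39 CPM in M9, well under these levels. Mouse tumors are mixtures of cells, and in such bulk samples fewer cells of a type and less RNA per cell cannot be told apart.

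Max, the partner that every dimer of the network needs, had 44.2, 53.05, 53.1 and 50.3 CPM in F187, F325, F331 and F368, and 58.5, 65.0, 76.5, 106 and 78.8 CPM in M351, M408, M9, M624 and M664. Every Myc-knockin tumor lay above the highest p53-driven tumor, by a small margin in M351. The means were 76.9 ± 18.1 CPM (SD, n = 5) and 50.2 ± 4.17 CPM (SD, n = 4), 1.53 times as high. The log2 fold change of 0.62 (standard error 0.25) did not pass the test (edgeR adjusted p = 0.138). It was 0.46 without M624 and M664 and 0.84 in the 5 libraries free of satellite reads, and edgeR's adjusted p was 0.203 and 0.0515 in turn.

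Read within a tumor, a ratio of 2 genes does not depend on how the library is scaled. Levels of different genes were compared as reads per kilobase, over all annotated exons of a gene merged. This length can exceed that of the transcripts expressed, so ratios between genes, and which of 2 near-equal genes is higher, depend on it. Transcript numbers below are reads per kilobase in this sense. Myc transcripts outnumbered Max transcripts 1.38, 1.09, 1.67 and 1.59 to 1 in F187, F325, F331 and F368, and 6.11, 10.6, 2.50, 13.1 and 15.2 to 1 in M351, M408, M9, M624 and M664. By this measure Myc was above Max in every tumor, and least so in F325. The groups did not overlap, and the difference in mean log2 ratio was 2.50, which is 5.64-fold. The difference was 1.95 without M624 and M664 and 3.31 without the 4 libraries with satellite reads. No test was run on ratios. For comparison, the ratio to Max did not overlap between the groups for 21.7% of 15364 other genes tested.

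Max was also read against all of its partners. For each transcript of the 9 other members, summed per kilobase, there were 0.218 to 0.249 of Max in the p53-driven tumors, with little spread. In the Myc-knockin tumors there were 0.120, 0.0751, 0.221, 0.0665 and 0.0567 in M351, M408, M9, M624 and M664. M9, the knockin tumor with the least Myc, lay within the range of the p53-driven tumors and the other 4 lay below it. The sum includes Myc, so this ratio falls as Myc rises even where the level of Max is the same or higher.

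The antagonists as a whole overlapped between the groups. Summed over Mxd1, Mxd3, Mxd4, Mxi1 and Mnt, they had 2.03, 2.24, 1.72 and 2.38 transcripts per kilobase for each Max in F187, F325, F331 and F368, and 1.30, 1.78, 1.28, 1.38 and 2.19 in M351, M408, M9, M624 and M664. The ranges overlapped through M408 and M664, and the difference in mean log2 ratio was -0.42. Per kilobase, the summed antagonists were above Myc in every p53-driven tumor. The ratio of Myc to antagonists was 0.683, 0.485, 0.975 and 0.668 in F187, F325, F331 and F368. The value of F331 is near 1, where the order depends on the exon lengths used. In every Myc-knockin tumor Myc was above the antagonists, at ratios of 4.70, 5.95, 1.94, 9.51 and 6.95 in M351, M408, M9, M624 and M664. This ratio differed by 2.92 in mean log2, which is 7.54-fold, and by 2.47 to 3.58 over the alternatives run.

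**Figure D2:**
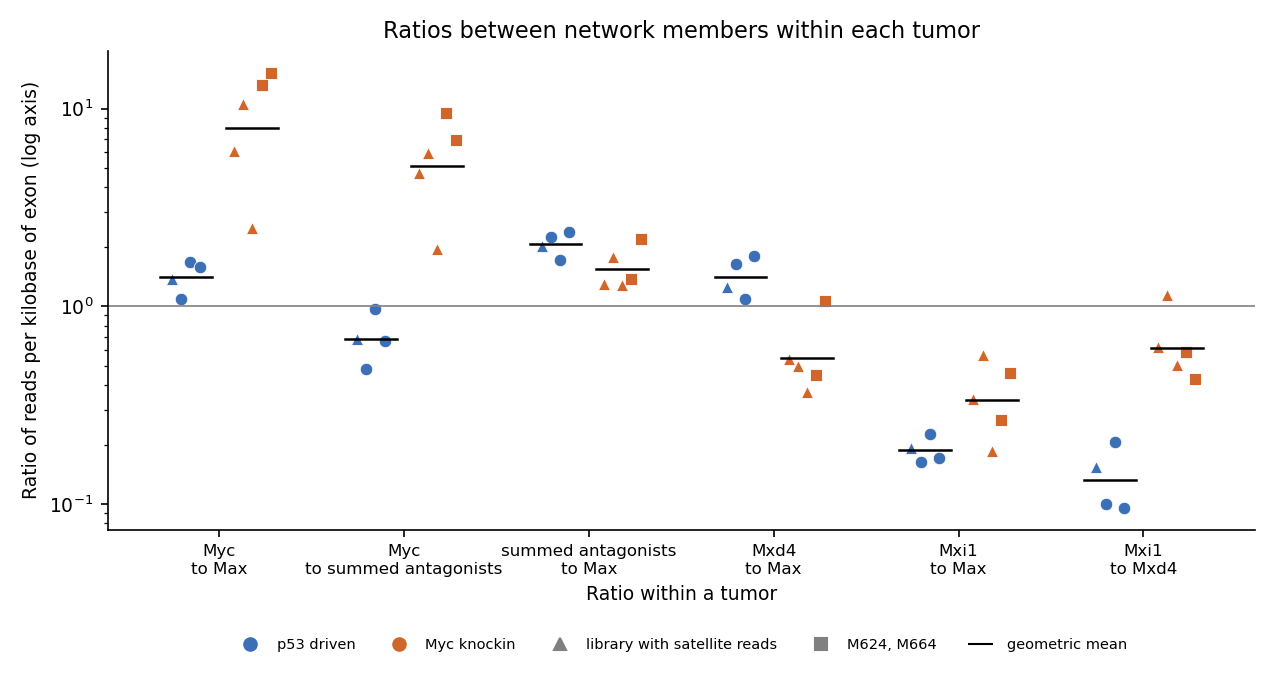
Ratios of reads per kilobase of exon between members within each tumor (log axis, grey line at 1), for p53-driven (blue) and Myc-knockin (orange) tumors, with symbols for the library kinds and lines at the geometric means. Myc to the summed antagonists lies below 1 in the 4 p53-driven tumors and above 1 in the 5 Myc-knockin tumors, while the summed antagonists to Max overlap.

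Among the antagonists, Mxi1 and Mxd4 had fold changes of opposite sign. Mxi1 had 16.2, 16.5, 22.7 and 16.4 CPM in F187, F325, F331 and F368, and 37.5, 69.8, 27.1, 53.2 and 68.7 CPM in M351, M408, M9, M624 and M664. Each Myc-knockin tumor lay above the p53-driven tumors, with M9 nearest to F331. The means were 51.3 ± 18.9 CPM (SD, n = 5) and 17.96 ± 3.19 CPM (SD, n = 4), and Mxi1 rose with a log2 fold change of 1.52 (standard error 0.33, adjusted p = 0.0312, edgeR).

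The call of Mxi1 was close to its threshold. In the 7 tumors other than M624 and M664 it had a log2 fold change of 1.41 and an adjusted p of 0.0540 (edgeR), and in the 5 tumors free of satellite reads 1.73 and 0.0130 (edgeR). With a p53-driven tumor left out, adjusted p was 0.0765 without F187, 0.107 without F325, 0.0931 without F331 and 0.138 without F368 (edgeR), at log2 fold changes of 1.46, 1.49, 1.66 and 1.46. In turn, these fits called 2.03%, 0.0498%, 0.0375% and 0.0292% of all genes, against 5.27% over all 9 tumors. Leaving out any Myc-knockin tumor kept the call. Relative to Max, Mxi1 was at 0.187 to 0.566 in the Myc-knockin and 0.164 to 0.226 in the p53-driven tumors, and these ranges overlapped through M9. In M9, Mxi1 rested on 34 reads, of which 8.48 were expected from genomic background. The annotation places 194 exonic bases of Mxi1 opposite the antisense gene Gm10197, which had 0 counts.

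Mxd4, an antagonist linked to cell cycle exit in differentiating tissue, had 130.0, 204, 137 and 213 CPM in F187, F325, F331 and F368, and 75.1, 76.4, 66.9, 112 and 199 CPM in M351, M408, M9, M624 and M664. The Myc-knockin tumors lay below the p53-driven range except M664. The log2 fold change was -0.69 (standard error 0.37) and did not pass the test over all 9 tumors (edgeR adjusted p = 0.254). Without M624 and M664 it was -1.17 and passed (edgeR adjusted p = 0.0481), in a comparison in which 4.61% of genes were called. Without the 4 libraries with satellite reads it was -0.22 (edgeR adjusted p = 0.680). Left out alone, M664 moved it to -1.02 (edgeR adjusted p = 0.0619). Relative to Max, which sets library scaling aside, Mxd4 had 1.25, 1.63, 1.09 and 1.79 transcripts per kilobase in F187, F325, F331 and F368, and 0.545, 0.498, 0.371, 0.451 and 1.07 in M351, M408, M9, M624 and M664. These ranges did not overlap, by a small margin between M664 and F331, and the difference in mean log2 was -1.37. Myc and Mxd4 were thus 2 of the 7 members with a ratio to Max whose groups did not overlap, a share near the 21.7% over all genes. In CPM, Max was higher in every Myc-knockin tumor, which lowers the ratio of Mxd4 to Max whatever the level of Mxd4. M664 had Mxd4 within the p53-driven range in CPM, and its Max was at 78.8 CPM against 53.1 CPM in F331.

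Mxd4 made up 61.5% to 75.3% of the summed antagonist transcripts in the p53-driven tumors. In the Myc-knockin tumors its share was 41.9%, 28.0%, 28.9%, 32.8% and 48.9% in M351, M408, M9, M624 and M664. For each Mxd4 transcript there were 0.155, 0.1004, 0.206 and 0.0960 of Mxi1 in F187, F325, F331 and F368, and 0.622, 1.14, 0.503, 0.589 and 0.430 in M351, M408, M9, M624 and M664. Every Myc-knockin tumor was thus above every p53-driven tumor, and the difference in mean log2 was 2.22, which is 4.66-fold. It was between 2.00 and 2.42 in the other sets of tumors and after subtraction of the background. The ratios to Mxd4 and the shares were chosen after their values were seen, and no test was run on them.

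Mnt, which holds E-boxes in resting and cycling cells alike, had 11.5, 12.99, 13.8 and 17.02 CPM in F187, F325, F331 and F368, and 17.2, 30.2, 14.3, 55.8 and 45.9 CPM in M351, M408, M9, M624 and M664. The knockin tumors M624 and M664 were the highest, M351 was level with F368 and M9 lay inside the p53-driven range. Its log2 fold change of 1.26 (standard error 0.41) had an adjusted p of 0.0855 in edgeR. DESeq2 gave 1.27 with an adjusted p of 0.0485, and it called 15.4% of all genes it tested. With M624 and M664 left out it came to 0.68 (edgeR adjusted p = 0.208), and over those free of satellite reads it was 1.82 and passed (edgeR adjusted p = 0.00991), in a comparison in which 27.9% of genes were called. Leaving out M9 alone gave 1.45, which passed as well (edgeR adjusted p = 0.0386). The count of Mnt in M9 was 18, with 5.75 expected from background.

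**Figure D3:**
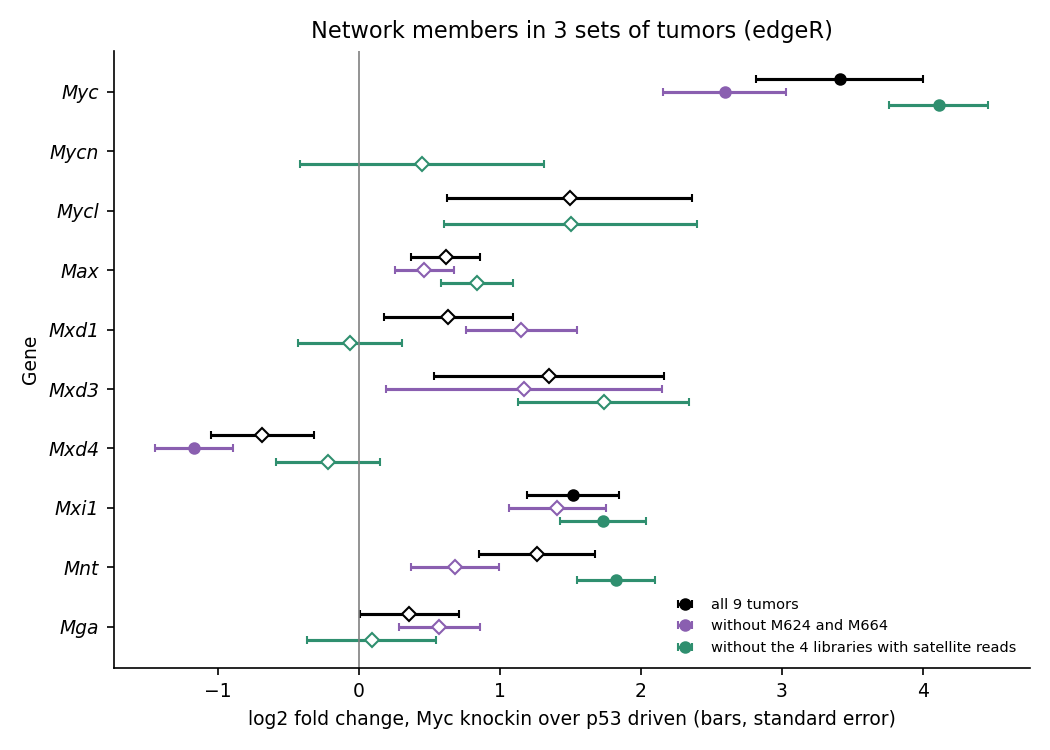
log2 fold change of each member between Myc-knockin and p53-driven tumors from edgeR, in all 9 tumors (black), without M624 and M664 (purple) and without the 4 libraries with satellite reads (green), with standard errors as bars and filled symbols for calls. Mxi1 stays between 1.41 and 1.73, Mnt goes from 0.68 to 1.82 and Mxd4 from -1.17 to -0.22 between the last 2 sets.

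Mxd1 and Mxd3 gave no call in any of these sets. Mxd1, an antagonist that is abundant in maturing granulocytes, had 19.4, 10.3, 13.5 and 9.24 CPM in F187, F325, F331 and F368, and 17.9, 41.6, 20.7, 9.37 and 11.5 CPM in M351, M408, M9, M624 and M664. M408 alone stood well above the rest. Between the groups it differed by a log2 fold change of 0.63 (standard error 0.46, edgeR adjusted p = 0.403), 1.15 without M624 and M664, 0.18 without M408 and -0.06 without the 4 libraries with satellite reads. M408 was also the tumor with the most neutrophil transcripts, with 131 CPM summed over 8 marker genes, where no other tumor exceeded 27.1 CPM. Most of it came from S100a9 (62.8 CPM) and S100a8 (41.9 CPM). Elane had 0 counts in M408, and Mpo, at 0.183 CPM, was at its lowest of the 9 tumors there. The part of neutrophils in the value of Mxd1 was not tested.

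Mxd3, an antagonist expressed in cycling cells before they divide for the last time, had 4.74, 5.29, 2.25 and 1.95 CPM in F187, F325, F331 and F368, and 1.23, 1.28, 22.3, 14.2 and 6.78 CPM in M351, M408, M9, M624 and M664. The knockin tumors fell on both sides of the p53-driven range, 3 above and 2 below it. The counts were few in some libraries, with 2 reads in M351 where 2.66 were expected from background, 7 in M408 and 28 in M9 (exact Poisson 95% interval 18.6 to 40.5). In M624 and M664 it had 372 and 157 reads. Its log2 fold change was 1.35 (standard error 0.82, edgeR adjusted p = 0.315), and it was 0.80 without M9, 0.38 with limma-voom, 1.17 without M624 and M664 and 1.74 without the 4 libraries with satellite reads (edgeR adjusted p = 0.0756 in the last). Mxd3 shares 105 exonic bases with Prelid1 on the opposite strand, and since the strand setting of the counting is not given, reads there cannot be told apart.

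Mga had 127, 148, 140.3 and 129.6 CPM in F187, F325, F331 and F368, and 194.5, 255, 129, 221 and 73.3 CPM in M351, M408, M9, M624 and M664. The p53-driven tumors were close together, while the knockin tumors lay on either side of them, M664 lowest and M408 highest. Its log2 fold change was 0.36 (standard error 0.35, edgeR adjusted p = 0.546), 0.57 without M624 and M664, 0.21 without M408 and 0.09 without the 4 libraries with satellite reads. M624 and M664, which had the highest Myc, differed in Mga, with 14.4 and 4.78 CPM per kilobase.

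The MYC paralogs stayed low. Mycn had 0.790, 1.01, 1.12 and 0.122 CPM in F187, F325, F331 and F368, and 3.08, 0.733, 19.1, 1.18 and 0.907 CPM in M351, M408, M9, M624 and M664. Only M9 stood out, on 24 reads (exact Poisson 95% interval 15.4 to 35.7) with 4.10 expected from genomic background. Such intervals cover counting error only. M9 is also the knockin tumor with the lowest Myc, and even there Myc was at 53.1 and Mycn at 5.80 CPM per kilobase. Mycl had 1.58, 0.856, 1.99 and 0.851 CPM in F187, F325, F331 and F368, and 6.16, 0.366, 5.58, 6.13 and 0.907 CPM in M351, M408, M9, M624 and M664. Of these, the value of M624 rested on 161 reads, while those of M351 and M9 rested on 10 and 7 reads, with 4.54 and 5.02 expected from background. For Mycl edgeR gave a log2 fold change of 1.495 (standard error 0.87, edgeR adjusted p = 0.294).

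Per kilobase of exon, the order of levels in the p53-driven tumors was Mxd4 (20.2), Myc (19.99), Max (13.9), Mga (8.88), Mnt (2.98), Mxi1 (2.63), Mxd1 (1.85), Mxd3 (1.501), Mycl (0.327) and Mycn (0.231), as means of CPM per kilobase. Neighbours whose ranges overlapped there were Mxd4 and Myc, Mnt and Mxi1, Mxi1 and Mxd1, Mxd1 and Mxd3, and Mycl and Mycn. Mxd4 was above Myc in 2 of the 4 tumors. In the Myc-knockin tumors the order of means was Myc (212), Max (21.4), Mxd4 (12.5), Mga (11.4), Mxi1 (7.51), Mnt (7.07), Mxd3 (3.86), Mxd1 (2.86), Mycn (1.52) and Mycl (0.948), and only Myc and Max were neighbours without overlap. Mxd4 was above Mga in only 1 of the 5 tumors, M664, at 23.4 against 4.78 CPM per kilobase. Of the network's transcripts per kilobase, Myc made up 21.7% to 33.04% in the p53-driven and 45.3% to 81.7% in the Myc-knockin tumors. The share of Mxd4 was 21.6% to 32.6% against 2.81% to 6.73%, and that of Max 17.9% to 19.95% against 5.37% to 18.1%. The sum includes Myc, so a higher Myc lowers the shares of the other members whatever their own levels. In CPM, Max was higher in every Myc-knockin tumor, and Mxd4 in M664 lay within the p53-driven range.

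**Figure D4:**
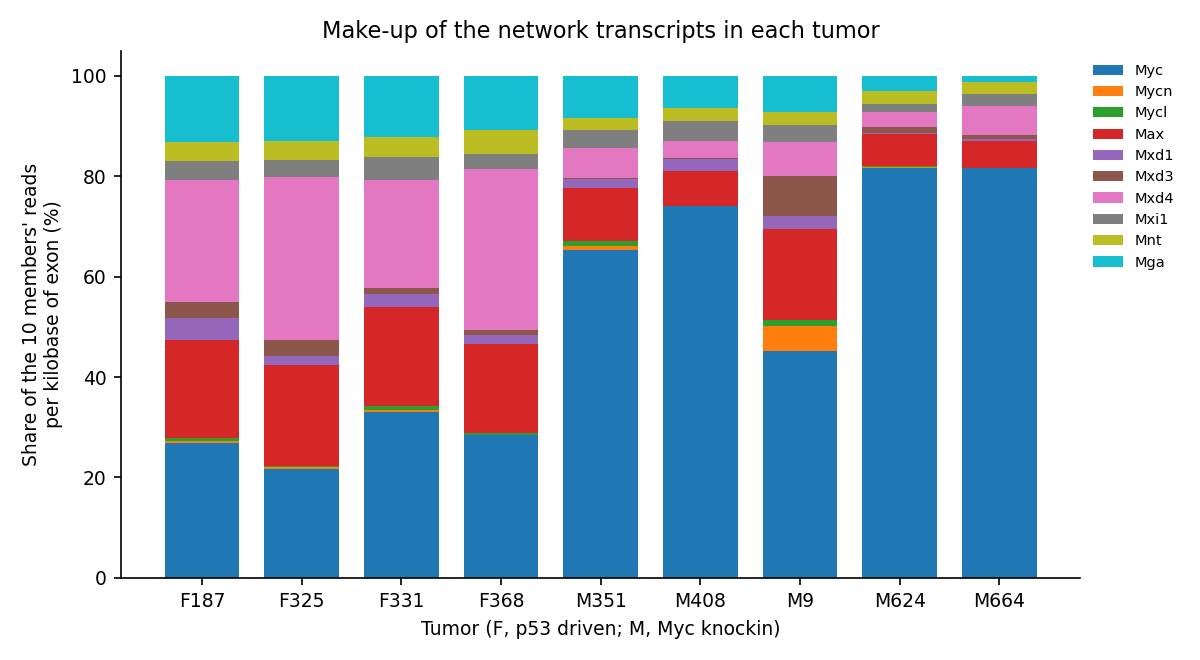
Share (%) of each of the 10 members in the network's summed reads per kilobase of exon, 1 bar per tumor, with F names for p53-driven and M names for Myc-knockin tumors. Myc is at most 33.04% of a p53-driven bar and at least 45.3% of a Myc-knockin bar, and Mxd4 is at least 21.6% of the former and at most 6.73% of the latter. The sum includes Myc, so the other shares fall as Myc rises.

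Proteins that act with the network were read from 8 lists, chosen with earlier results of these data known. The lists held 90 genes, all tested. Of these, 13 were called, 11 with a higher and 2 with a lower level in the knockin, where 5.27% of all genes were called. Without M624 and M664 there were 7 calls, 6 of them higher, beside 4.61% of all genes. Without the 4 libraries with satellite reads there were 39 calls, 36 of them higher, beside 27.9% of all genes. With F325, F331 or F368 left out none of the 90 was called, beside 0.0498%, 0.0375% and 0.0292% of all genes in turn. There were 6 calls without F187, 7 without M624 and 23 without M9, beside 2.03%, 2.62% and 10.4% of all genes.

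The partners and corepressors of the antagonists did not pass edgeR's test. None of the 3 extended partners was called: the log2 fold changes of Mlx, which replaces MAX in dimers with some MXD proteins and MNT, and of Mlxip and Mlxipl, its glucose-sensing partners, were -0.80, -0.16 and 2.67 (edgeR adjusted p = 0.250, 0.709 and 0.169). At an unadjusted p under 0.05 there was 1 of these, Mlxipl, and neither DESeq2 nor limma-voom called any. None of 9 corepressor genes was called by edgeR, with a median log2 fold change of 0.18 against 0.14 over all genes. Sap30, a subunit of the SIN3 complex, was at an unadjusted p under 0.05 with a log2 fold change of 1.27, and DESeq2 called it. Sin3a, the scaffold that MXD proteins recruit, had mean levels of 62.6 ± 22.4 CPM (SD, n = 5) with and 55.6 ± 14.9 CPM (SD, n = 4) without the knockin. None of 17 genes of MYC turnover was called by edgeR, although 7 were at an unadjusted p under 0.05 and DESeq2 called 4 and limma-voom 2. Of all genes they tested, DESeq2 called 15.4% and limma-voom 10.8%. Plk1, a mitotic kinase that stabilizes MYC, was nearest, with a log2 fold change of 1.66 (edgeR adjusted p = 0.0501). Fbxw7, the ubiquitin ligase that reads the site removed by T58A, had a log2 fold change of -0.20 (edgeR adjusted p = 0.736).

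Among 15 cofactors of MYC, 2 rose and 1 fell, beside 2.26% of all genes called higher and 3% called lower. The paired ATPases Ruvbl1 and Ruvbl2, subunits of the TIP60 complex that MYC recruits, had log2 fold changes of 1.86 (standard error 0.40, edgeR adjusted p = 0.0320) and 2.3004 (standard error 0.56, edgeR adjusted p = 0.0429). Ruvbl2 went from 16.0 ± 5.90 CPM (SD, n = 4) to 76.9 ± 60.4 CPM (SD, n = 5). The acetyltransferase Kat2b fell from 82.9 ± 10.2 CPM (SD, n = 4) to 22.8 ± 9.27 CPM (SD, n = 5), a log2 fold change of -1.89 (edgeR adjusted p = 0.0247). Its paralog Kat2a, with a log2 fold change of 1.04, did not pass (edgeR adjusted p = 0.173). Without M624 and M664, Kat2b was still called, and Ruvbl1 and Ruvbl2 had adjusted p of 0.0507 and 0.0744 at a log2 fold change of 1.39 (edgeR). Without the 4 libraries with satellite reads Ruvbl2 was at 3.37 (edgeR adjusted p = 0.00484).

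In the Polycomb complex that holds MGA and MAX, 2 of 10 genes rose, beside 2.26% of all genes called higher. Pcgf6, the subunit particular to this form of the complex, went from 4.73 ± 0.88 CPM (SD, n = 4) to 18.1 ± 1.92 CPM (SD, n = 5), with a log2 fold change of 1.95 (edgeR adjusted p = 0.0175). Its values had little spread within either group. Tfdp1, the dimer partner of E2F factors, had a log2 fold change of 1.49 (edgeR adjusted p = 0.0288). The other 8, among them L3mbtl2 and E2f6, were not called, and the median of the list was 0.27. Both Pcgf6 and Tfdp1 were also called without M624 and M664.

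Of 11 other basic helix-loop-helix factors that bind E-boxes, Tfap4 rose and Mitf fell, beside 5.27% of all genes called in either direction. Tfap4, known as a direct target of MYC, went from 5.26 ± 1.43 CPM (SD, n = 4) to 26.5 ± 8.05 CPM (SD, n = 5), with a log2 fold change of 2.33 (edgeR adjusted p = 0.0160). Mitf, the factor of melanocytes and osteoclasts, went from 41.1 ± 10.6 CPM (SD, n = 4) to 13.3 ± 5.87 CPM (SD, n = 5), with a log2 fold change of -1.63 (edgeR adjusted p = 0.0328). Osteoclast markers were lower as well, as given below, and their part in the value of Mitf was not tested. Mitf had an adjusted p of 0.0704 without M624 and M664 (edgeR).

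Of 16 genes known to be activated by MYC, 5 rose, beside 2.26% of all genes called higher. All 16 fold changes were above 0, and their median log2 fold change was 1.49. Over all genes the median was 0.14, so more of them lay above 0 than below it. The largest over all 9 tumors was that of Fbl, the RNA methylase of small nucleolar ribonucleoproteins, at 3.47 (standard error 0.63, edgeR adjusted p = 0.0218), from 3.12 ± 0.52 CPM (SD, n = 4) to 34.2 ± 29.0 CPM (SD, n = 5). Fbl was at 78.5 and 48.9 CPM in M624 and M664 and at 10.4 to 19.7 CPM in the other knockin tumors, and its fold change was 2.27 without the pair, where that of Npm1 was 2.29, and 4.32 without the 4 libraries with satellite reads. Npm1, a nucleolar chaperone of ribosome assembly, had 2.27 over all 9 tumors (standard error 0.33, edgeR adjusted p = 0.0160). Ncl, Mrto4 and Hspd1 were called as well. Of 9 genes that MYC represses through its partner MIZ1, none was called lower by edgeR, DESeq2 or limma-voom, 1 was lower at an unadjusted p under 0.05, and Cdkn1c, an inhibitor of cyclin-dependent kinases, rose, with a log2 fold change of 2.99 (standard error 0.72, edgeR adjusted p = 0.0411). Its counts were low in the p53-driven tumors, at 2.20 ± 1.91 CPM (SD, n = 4), and the fold change was 4.16 without the 4 libraries with satellite reads and 2.41 without M624 and M664 (edgeR adjusted p = 0.101). Cdkn1a, the best known gene of this kind, had a log2 fold change of -0.82 (edgeR adjusted p = 0.185).

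**Figure D5:**
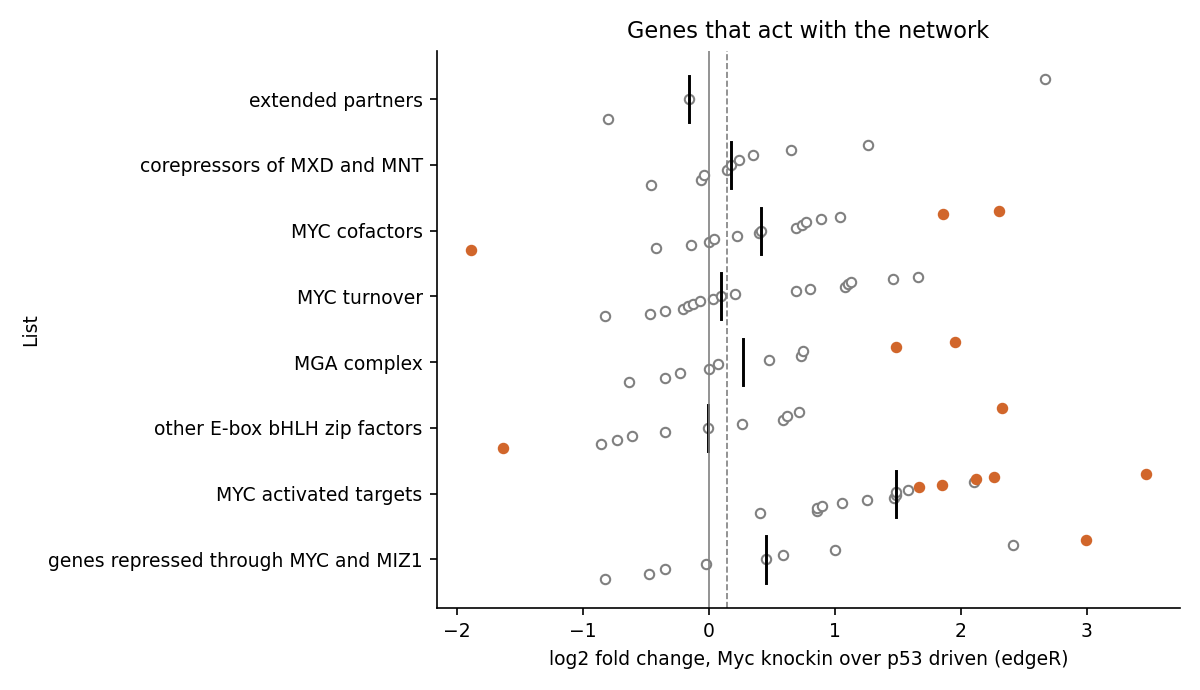
log2 fold change (edgeR, Myc-knockin over p53-driven) of the 90 genes in 8 lists that act with the network, 1 point per gene, orange where called, with a bar at each list's median and a dashed line at the median of all genes tested. The median of the genes activated by MYC lies at 1.49 and those of the other 7 lists between -0.16 and 0.45.

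Markers of bone cells and of other cells a tumor can hold are set beside these values. Summed over 8 osteoblast genes, chiefly Col1a1, the p53-driven tumors had 42798 to 95527 CPM and the Myc-knockin tumors 2240 to 24482 CPM, and 2 of the 8, Bglap and Bglap2, were called lower. Summed over 5 osteoclast genes they had 1371 to 8005 and 57.4 to 917 CPM, with 4 called lower. The 7 macrophage genes summed to 615 to 1159 and 228 to 782 CPM, with Csf1r and Cd68 called lower. C1qa, C1qb and C1qc had log2 fold changes of 0.17, 0.56 and -0.05 and were highest in M664 (172, 202 and 140.3 CPM). Red cell genes summed to 216 and 783 CPM in M624 and M664 and to at most 31.7 CPM elsewhere. Endothelial genes summed to 286 to 410.2 and 67.5 to 362 CPM, skeletal muscle genes to 8.69 to 3587 and 1.26 to 1462 CPM, T cell genes to at most 27.9 and B cell genes to at most 25.5 CPM. In the neutrophil, red cell, endothelial, muscle, T cell and B cell lists edgeR made no call and 5 genes were at an unadjusted p under 0.05. DESeq2 called 6 of the listed genes, beside 15.4% of all genes it tested. Only 4 of 8 neutrophil, 1 of 6 red cell, 1 of 5 T cell and 2 of 5 B cell genes passed edgeR's filter and could be called. Of 4 proliferation genes, Ccnb1 was called higher, and the sums of 336 to 574 and 351.3 to 859 CPM overlapped. The part of all these cells in the members' differences was not tested.

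Besides Myc, the only member called was Mxi1, and the genes with the most similar pattern to it were looked for among 9538 tested genes with a mean of at least 10 CPM. Over the 9 tumors the highest Pearson correlations of log2(CPM + 1) were those of Gm14494 (0.975), Ppp2r3c (0.972) and Hmga1b (0.968). All 3 also follow the difference between the groups, and the correlations of the deviations from the group means were 0.905, 0.916 and 0.871. Hmga1b is nearly identical to Hmga1, so its reads are uncertain. The points are the same 9 libraries, with the differences in depth and background given above, and these values are a description with no test.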

How the data were processed

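RNA was taken from whole tumors. The authors trimmed the reads with Trim Galore, aligned them to mm10 with STAR, ran featureCounts to count reads on each gene, and deposited these raw counts. The versions of STAR and featureCounts, the annotation and the strand setting are not given in the sources used here. Exon lengths and overlaps came from GENCODE M21 (55034 of 55367 gene identifiers matched), and promoter windows from RefSeq. The members and gene lists were chosen with earlier results of these data known.

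Counts were analysed in R 4.3.3 with edgeR 4.0.16 (TMM, filterByExpr with a minimum count of 10, glmQLFit and glmQLFTest, no covariates). Alternatives were other scalings (upper quartile, or the library size alone), other filters (a count of 1 or more in all, or 10 or more in each tumor), DESeq2 1.42.0, limma-voom (limma 3.58.1) with quality weights, the named libraries left out, satellite genes removed, genomic background (counts of chemosensory receptor genes per kilobase of exon) subtracted, other thresholds, and each tumor left out in turn. Background and satellite reads left 671787 counts in M9 and 872933 in M351, which limits low genes there. No 2 tumors of the same group agreed within counting noise (chi-square per gene at least 19.5 over the pairs within groups), so none was taken as a repeat deposit. All members were named with every tumor's value. From the lists the called genes were named, the 2 with the largest change where more than 4 were called, and for a called member other than Myc the 3 genes most correlated with it. Other genes named were chosen after their values were seen. The edgeR script was tested on simulated data. The table held no per-sample columns that were left out.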

Additional observations from a re-analysis of the deposited data

Results flagged for a closer look

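In groups of 4 or 5 tumors, a tumor was picked out where its gap to the nearest other tumor, divided by the range of the group, passed Dixon's 95% critical value of 0.829 or 0.710. Of 44 groups examined (10 members and 12 ratios in both genotypes), 5 held such a tumor, and chance picks out about 1 in 20 groups. Mycn in M9 was at 19.1 CPM, against 3.08 CPM in the next Myc-knockin tumor. Mxi1 in F331 was at 22.7 CPM, against 16.5 CPM in the next p53-driven tumor. The ratio of Mnt to Max was 0.263 in F368, against 0.201 in the next p53-driven tumor. The ratio of Mxd4 to Max was 1.07 in M664, against 0.545 in the next Myc-knockin tumor. The ratio of Mxi1 to Mxd4 was 1.14 in M408, against 0.622 in the next Myc-knockin tumor.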

How the results depend on the processing

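The number of members called was 2 over all 9 tumors, 0 with library size alone, 1 among all genes with at least 1 count, and 0 to 3 when single tumors were dropped. The number of genes called was 809 and became 136 with library size alone, 494 among all genes with at least 1 count, 1316 with at least 10 counts in every tumor, 2377 with DESeq2, 1663 with limma-voom, 4595 without the 4 libraries with satellite reads, 2248 at an adjusted p under 0.1, and, with single tumors dropped, 335 without F187, 8 without F325, 6 without F331, 5 without F368, 371 without M351, 375 without M624 and 1588 without M9. Of the calls, 43% were higher in the Myc-knockin tumors, against 64.5% with upper-quartile normalization, 59.7% with at least 10 counts in every tumor, 55.8% with DESeq2, 56.5% without the 4 libraries with satellite reads and 54.8% after subtraction of the background. The number of listed genes called was 13 and became 0 with library size alone, 7 among all genes with at least 1 count, 21 with at least 10 counts in every tumor, 24 with DESeq2, 7 without M624 and M664, 39 without the 4 libraries with satellite reads, 20 after subtraction of the background, and 0 to 23 when single tumors were dropped. Myc was not called with library size alone (log2 fold change 3.63, adjusted p 0.0659, edgeR). Mxi1 was not called with library size alone or among all genes with at least 1 count, at log2 fold changes of 1.59 and 1.49, against 1.52 in the comparison reported. Mnt was also called with at least 10 counts in every tumor, at 1.35 (adjusted p 0.0351, edgeR), and Mxd4 with limma-voom, at -1.07 (adjusted p 0.0274). The fold change of Mxd1 turned to -0.0601 without the 4 libraries with satellite reads, and the cause was not tested. The difference in mean log2 ratio of Myc to Max lay between 2.26 and 2.91 when single tumors were dropped, and that of Myc to the summed antagonists 2.69 to 3.27. The median log2 fold change of all genes was 0.14, 0.03 with library size alone and 0.24 with upper-quartile normalization, and the direction of the 9 tested members was the same under these scalings. No paired analysis was possible because the table's columns carry no replicate numbers. In M9 and M351 few reads limit what can be seen of Mycn, Mycl, Mxd1, Mxd3 and Mnt.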
